A study of Mus musculus with 2 samples.

Results

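The genes that hold a T cell before S phase or move it on were compared between regulatory T cells (Tregs) of wild-type (WT) mice and of DNR mice, whose TGF-beta receptor II is a dominant negative form. The set held 9 genes of the 18193 that had a named probe set on the array: the cyclin-dependent kinase (CDK) inhibitor genes Cdkn1a, Cdkn1b, Cdkn2b, Cdkn2c and Cdkn2d, the cyclin D genes Ccnd1, Ccnd2 and Ccnd3, and Myc. They were taken by gene symbol, with every probe set that the platform annotation assigns to 1 of these genes alone, which gave 21 probe sets. Both RNA samples came from spleen Tregs, sorted as CD4+Foxp3+, of animals aged 10 weeks on the C57BL/6 background. The DNR group differs from the WT group by the mutant receptor, and each group is a single Affymetrix array. The promoter and the cells that express the mutant receptor, and the number of mice behind each RNA, are not stated in the labels. The sorting protocol of both arrays names DNR animals, so the groups follow the genotype label.

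CDK inhibitors bind CDKs or their complexes with cyclins and slow the passage from G1 into S phase. Cyclins of the D type activate CDK4 and CDK6 in response to growth signals, and these kinases inactivate the retinoblastoma protein, which otherwise restrains E2F transcription factors. Myc drives growth and biosynthesis and represses several CDK inhibitor genes. TGF-beta is known in epithelial cells and lymphocytes for a cytostatic response, in which it lowers Myc and induces Cdkn2b, Cdkn1a and, in some cells, other inhibitors.

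The values are MAS5 signals, a linear measure of the brightness of a probe set, and each log2 ratio divides the DNR by the WT signal. Signals under a floor of 110.9, the higher of the medians of both arrays, were set to the floor, and a gene counts as measured if the probe set with its highest mean signal exceeded the floor on at least 1 array. With 1 array per genotype there is no replicate, no test and no p-value, and every difference is one between these RNA samples. The one available error is the disagreement of probe sets for the same gene: over 3968 genes the robust SD of a log2 ratio was 0.36, a factor of 1.29. It was 0.51 where the dimmer probe set lay within 4 times the floor and 0.22 where it lay over 16 times the floor. This error leaves out how mice, sorts and hybridisations vary. The Treg markers Foxp3 (4550 on the DNR array, 3754 on the WT array) and Ctla4 (52119 and 41217) were well above the floor on both arrays. The other 4 markers of the Treg list were above it too: Ikzf2 and Tnfrsf18 were higher on the DNR array by under 1.5-fold, Il2ra was at -0.21, and Izumo1r was 2.03-fold lower (1734 against 3515). Of 65 marker genes of 9 other cell types 39 were above the floor, 4 of them at least 2-fold higher and 4 at least 2-fold lower on the DNR array. Over all measured genes 4% were at least 2-fold higher and 2.93% at least 2-fold lower. Among the higher markers S100a8 and Ngp passed the floor on the DNR array alone. The markers with the most signal in those 9 lists were Cd79b, Xbp1, Csf1r, Mmp9, Siglech, Eomes, Epor, Itga2b and Pecam1, and of these Mmp9 differed by at least 2-fold (537 against 184). Xbp1 and Prdm1 of the plasma cell list and Eomes of the CD8 T and NK cell list are also expressed by T cells.

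None of the 9 genes differed by 2-fold or more between DNR and WT Tregs. The CDK inhibitors went in both directions: Cdkn1b (p27) and Cdkn2d (p19) were lower in DNR Tregs by 1.84-fold and 1.54-fold, Cdkn2c (p18) was 1.63-fold higher, and Cdkn1a (p21) was nearly equal. The cyclin D genes and Myc differed by 1.42-fold or less on the probe set that represents each gene. The count at 2-fold was 0 of 9 higher and 0 of 9 lower, where 4% of the 11927 measured genes were higher and 2.93% lower, so a count of 0 among 9 genes is near this background. At 1.5-fold 1 gene was higher and 2 were lower, against 12.8% and 9.85% of measured genes. The median log2 ratio was 0.06 over the 9 genes and 0.01 over all measured genes, with 6 members above 0 and 3 below. Of the 21 member probe sets 19 were above the floor on at least 1 array, and 0 of these 19 reached 2-fold, against 3.93% higher and 3.30% lower among 20764 named probe sets above the floor. All 9 genes were measured, 8 of them on both arrays. Cdkn2b passed the floor through the DNR array alone, so the direction of its bound was set by that choice. In bulk RNA of this kind, fewer cells that express a gene and less RNA per cell cannot be told apart.

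**Figure D1:**
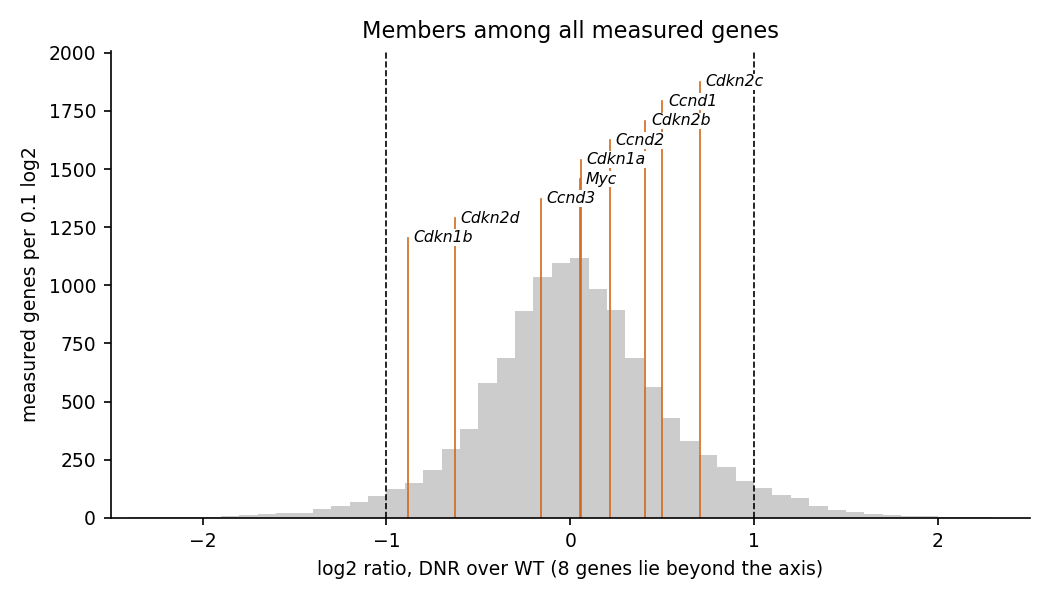
Histogram of the log2 ratio (DNR over WT, horizontal axis) of the 11927 measured genes in steps of 0.1, with 1 orange line for each of the 9 genes and dashed lines at 2-fold; line heights serve to separate the names, and Cdkn2b is drawn at its lower bound. All 9 lines lie between the dashed lines, with Cdkn1b at -0.88 at the left and Cdkn2c at 0.71 at the right, and 8 genes lie beyond the axis.

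The CIP/KIP inhibitors bind complexes of cyclins with CDKs. Cdkn1b encodes p27, which keeps resting T cells out of the cycle and is removed when they are stimulated. Its main probe set, 1434045_at, read 4378 in DNR Tregs against 8065 in WT Tregs, a log2 ratio of -0.88. A second probe set, 1419497_at, had 374.7 and 523.3, a log2 ratio of -0.48 or 1.40-fold lower. Both probe sets were thus lower on the DNR array, and they differed from each other by about the robust SD. Of 9281 genes above the floor on both arrays 4.08% had a log2 ratio at or below that of Cdkn1b. Of the 1272 of them with a mean signal within 2-fold of its own, 1.18% did.

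Cdkn1a encodes p21, a target of p53 and of TGF-beta signalling. One probe set had 842.3 on the DNR and 810.1 on the WT array, a log2 ratio of 0.06. The other had 590.5 and 623.2, a log2 ratio of -0.08. The probe sets went in opposite directions by less than the robust SD, so no direction can be given for Cdkn1a. The remaining member of the family, Cdkn1c (p57), added here after its values were seen, had 196.9 and 173.4, both near the floor.

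The INK4 inhibitors bind CDK4 and CDK6 and compete with cyclin D for them. Cdkn2d, the gene of p19, had 1798.5 in DNR and 2774.5 in WT Tregs, a log2 ratio of -0.63. Cdkn2c, the gene of p18, went the other way, with 1256 and 769.8 and a log2 ratio of 0.71. Each is read by a single probe set, so neither value has a second reading on the array. A ratio at or below that of Cdkn2d was found in 8.74% of genes above the floor on both arrays, and one at or above that of Cdkn2c in 6.81%. Among genes with a mean signal within 2-fold of the member's these shares were 3.85% and 4.59%.

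Cdkn2b encodes p15, the INK4 inhibitor best known as a TGF-beta target. Its probe set had 147.3 in DNR Tregs and 72.95, under the floor, in WT Tregs, so the ratio is at least 1.33-fold higher in DNR Tregs. With no floor it was 2.02-fold higher, and a floor at the 40th percentile gave a log2 ratio of 0.98. The size of this difference is a matter of the floor, and the signal is in the range where probe sets disagree most. Cdkn2a, which neighbours Cdkn2b and encodes p16 and p19Arf, had 61.21 and 63.52, under the floor on both arrays; it was added after its values were seen. Cdkn3, a phosphatase of CDKs that carries an inhibitor symbol but belongs to neither inhibitor family, had 393.3 and 183, 2.15-fold higher, and was added likewise.

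The promoters of the INK4 genes and of Cdkn1b are shown because these inhibitors had the largest ratios, in both directions, and because p15 is the classical TGF-beta target among them. RefSeq promoter windows were found for 6 of the 9 genes, 9 windows in all, each from 250 bases before to 50 bases after a start site; Ccnd1, Ccnd2 and Myc had none. The 250 bases before the start are given 5′ to 3′ on the gene's strand (GRCm38.p6, RefSeq), with capitals for GGCGGG or its reverse complement, a GC box that Sp1 and KLF factors can bind. The window of Cdkn1b is chr6:134920151-134920400 on the plus strand. That of Cdkn2d is chr9:21291210-21291459, that of Cdkn2c, at the upstream of its 2 start sites, chr4:109666757-109667006, and that of Cdkn2b chr4:89311033-89311282, all on the minus strand.
Cdkn1b: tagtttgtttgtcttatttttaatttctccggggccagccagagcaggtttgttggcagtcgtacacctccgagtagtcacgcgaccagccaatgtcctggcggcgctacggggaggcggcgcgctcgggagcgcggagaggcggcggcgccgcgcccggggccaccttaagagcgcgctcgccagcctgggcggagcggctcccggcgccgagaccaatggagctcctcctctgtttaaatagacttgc
Cdkn2d: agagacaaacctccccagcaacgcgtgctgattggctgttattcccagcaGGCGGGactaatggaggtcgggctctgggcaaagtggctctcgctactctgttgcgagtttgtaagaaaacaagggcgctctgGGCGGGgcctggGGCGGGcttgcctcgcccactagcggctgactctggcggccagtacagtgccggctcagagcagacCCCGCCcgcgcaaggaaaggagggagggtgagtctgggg
Cdkn2c: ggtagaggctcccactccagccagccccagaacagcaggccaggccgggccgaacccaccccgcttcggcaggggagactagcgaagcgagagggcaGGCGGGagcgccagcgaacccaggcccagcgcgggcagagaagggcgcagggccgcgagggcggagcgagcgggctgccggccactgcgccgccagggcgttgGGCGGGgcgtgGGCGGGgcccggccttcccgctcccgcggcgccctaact
Cdkn2b: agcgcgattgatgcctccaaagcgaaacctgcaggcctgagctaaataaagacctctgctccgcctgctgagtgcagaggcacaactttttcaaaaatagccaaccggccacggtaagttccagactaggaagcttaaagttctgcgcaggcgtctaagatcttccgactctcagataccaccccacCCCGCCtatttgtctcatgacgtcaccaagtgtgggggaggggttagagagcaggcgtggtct

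Before the start site GGCGGG occurred 4 times in the Cdkn2d window, 3 times in the Cdkn2c window, 1 time in the Cdkn2b window and 0 times in the Cdkn1b window. The count did not follow the direction of the ratio, since Cdkn2d was lower and Cdkn2c higher on the DNR array. Over the full 300 bases 6 of the 9 member windows, which belong to 6 genes, held it, 66.7%, against 35.3% of 32851 windows of the same length. The motif is made of G and C alone, and the median GC content of all windows was 52.4%. Before the start, the member windows had from 42.8% (downstream Cdkn2c window) to 77.2% (upstream Cdkn2c window). All but the downstream Cdkn2c window were above that median. The shares were not compared at like GC content. The same search on both strands took in the E-box CACGTG (in 7.15% of all windows), the palindromic SMAD element GTCTAGAC (0.213%), the E2F motifs TTTCCCGC (1.07%), TTTGGCGC (0.514%) and TTTCGCGC (0.323%), and the FOXO motif TGTTTAC (3.65%). Of these, 1 match each was found in the downstream Cdkn2c window (CACGTG) and in a Ccnd3 window (TGTTTAC), and none in the printed sequences. The motifs can overlap one another, and a match describes letters, not a bound site.

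Cyclin D2 is the main D-type cyclin of resting and newly activated T cells, and 7 probe sets read Ccnd2. The main one, 1434745_at, had 16315 in DNR and 14060 in WT Tregs, a log2 ratio of 0.21. Over the 7 probe sets the log2 ratio ran from -0.20 to 0.44 with a median of 0.25, and 6 were higher on the DNR array. The one lower on it, 1430127_a_at, had 3883.9 and 4472.7. Among the others the difference was 1.36-fold at most (5518 against 4065), on a probe set whose name marks it as shared between transcripts. Ccnd2 had the most probe sets of the 9 genes, and each of the 7 differed by less than 1.5-fold.

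Ccnd3, the gene of the cyclin D that sustains lymphocyte expansion, was lower on the DNR array on both of its probe sets above the floor. The main probe set had 1099.5 and 1229.7, a log2 ratio of -0.16. The second had 619.1 and 938.4, a log2 ratio of -0.60 or 1.52-fold lower. The third, with 20.08 and 96.55, was under the floor on both arrays and gives no ratio. The difference on the main probe set was within the robust SD and that on the second was beyond it.

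Ccnd1, the D-type cyclin of epithelial and stromal cells, is little expressed in lymphocytes. Its main probe set had 237.4 on the DNR and 167.7 on the WT array, a log2 ratio of 0.50. The second had 124.6 and 119.7, nearly equal, and the third, with 77.1 and 26.35, was under the floor on both arrays. Both probe sets above the floor were higher on the DNR array, at signals where the robust SD was 0.51. Of 9 stromal and endothelial markers 5 were above the floor on at least 1 array, with a summed signal over the list of 1013.7 on the DNR and 926.9 on the WT array, and the collagen genes Col1a1, Col1a2 and Col3a1 were under the floor on both arrays. The summed signal of the macrophage list was 4203 on the DNR and 6255 on the WT array, and that of the neutrophil list 1408 and 686. The part of other cell types in the Ccnd1 ratio was not tested.

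**Figure D2:**
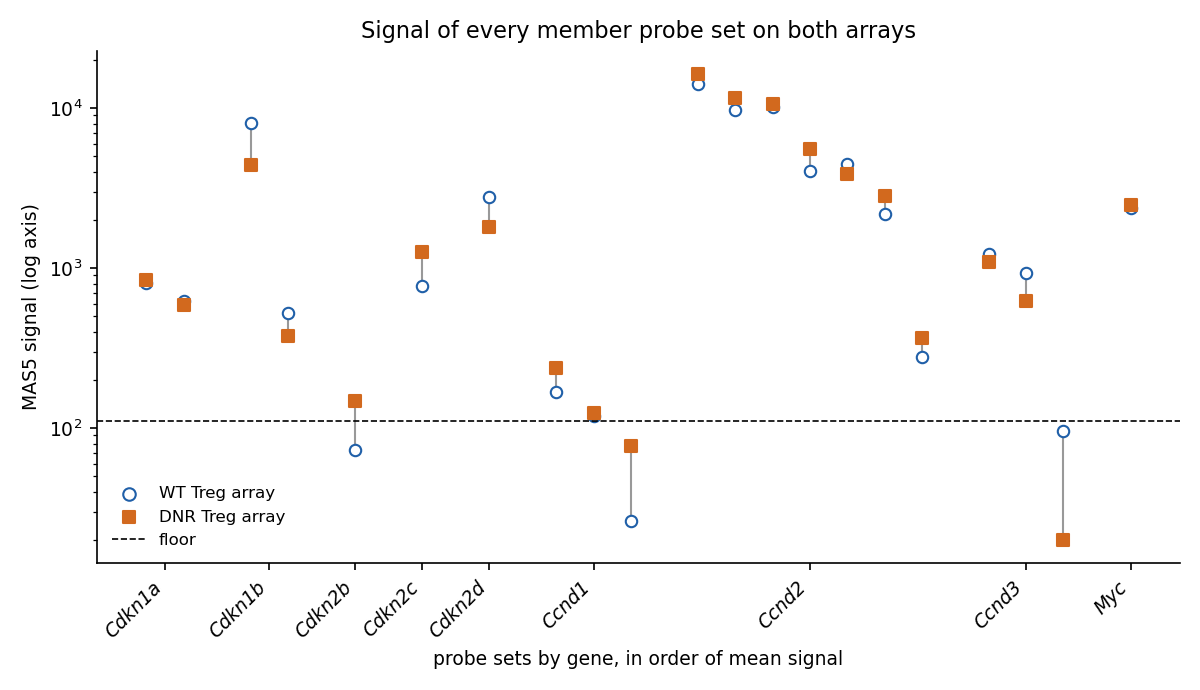
MAS5 signal (log axis) of each of the 21 member probe sets on the WT array (open circles) and the DNR array (orange squares), grouped by gene and ordered by mean signal within a gene; the dashed line is the floor of 110.9. The pairs of Cdkn1a and Myc nearly coincide, the WT circle is above the DNR square on both Cdkn1b probe sets and on Cdkn2d, and 2 probe sets, 1 of Ccnd1 and 1 of Ccnd3, have both points under the floor.

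Myc was read by 1 probe set, 1424942_a_at, with 2482 in DNR and 2390 in WT Tregs. The log2 ratio was 0.05, a 1.04-fold difference, and 88.7% of genes that exceeded the floor on both arrays had a ratio at least as far from 0. The Myc transcript was therefore close to equal in these RNA samples.

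**Figure D3:**
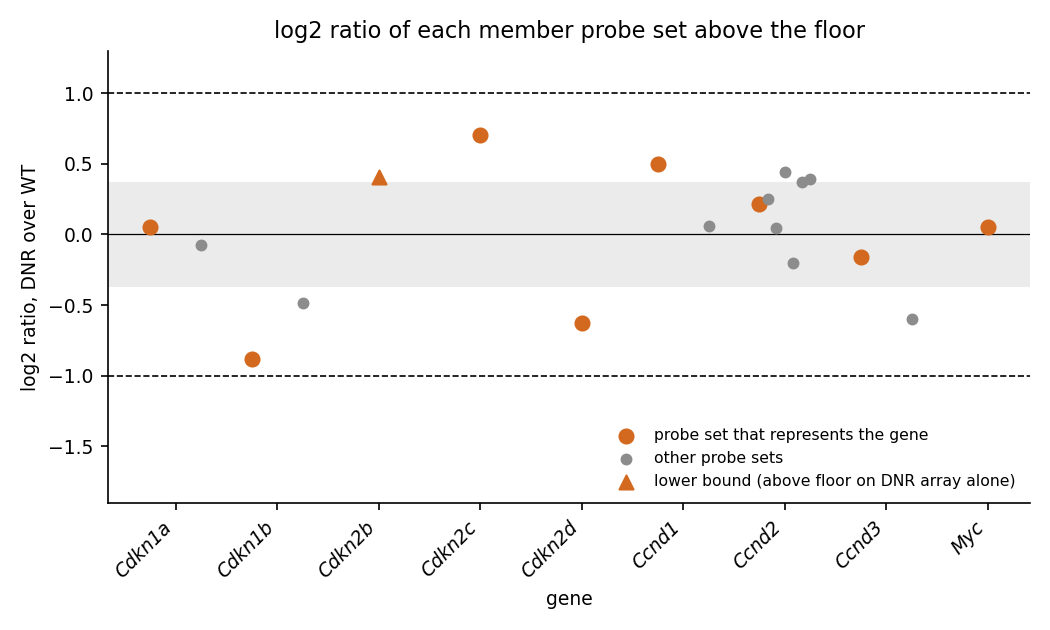
log2 ratio (DNR over WT) of the 19 member probe sets above the floor on at least 1 array, with the probe set that represents each gene in orange and others in grey; the triangle is a lower bound, the grey band is the robust SD of 0.36 on either side of 0, and dashed lines mark 2-fold. No point reaches a dashed line. Both Cdkn1b points, the Cdkn2d point and the second Ccnd3 point lie below the band. Cdkn2c, the bound of Cdkn2b, the main Ccnd1 point and 3 of the 7 Ccnd2 points lie above it. Within 4 times the floor the robust SD was 0.51. The points of Cdkn2b, Ccnd1 and the dimmest Ccnd2 probe set are in that range and do not exceed it.

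A list of CDKs, cyclins and enzymes that regulate CDKs was mostly higher in DNR Tregs. Beside targets of the inhibitors it holds Cdc25a, Cdc25b, Cdc25c, Wee1, Pkmyt1, Cdk7, Ccnh and Mnat1. Its counts are thus not those of the targets alone. Of these 16 measured CDK partners and S-phase cyclins 14 were higher and 2 lower. Cdc25c passed the floor on the DNR array alone, which set its direction. By at least 2-fold 3 were higher and 0 lower. Over all measured genes these shares were 4% and 2.93%, which also apply to the later lists. The median log2 ratio of the list was 0.41 against 0.01 over all measured genes. With the median over probe sets it was 0.21, with 12 genes higher and 4 lower. Without probe sets shared between transcripts 12 of 15 genes were higher. Ccna2, the cyclin of S phase and G2, had 1471 against 601.8, 2.44-fold higher, and a second probe set at 1.32. Cdk1, the mitotic kinase, had 1311 against 540.5, 2.43-fold higher. The direct partners are named here after their values were seen. Cdk4, a partner of cyclin D, had 2118 on the DNR and 1754 on the WT array, a log2 ratio of 0.27. A second probe set of Cdk4 was at 0.09, and 1 of its 2 others went the same way as the main one. Cdk6, the other partner of cyclin D, had 2898 and 1952, a log2 ratio of 0.57, with 0.71 on a second probe set. The cyclin E genes, which act after cyclin D, were 1.66-fold (Ccne1) and 1.995-fold (Ccne2) higher, and their partner Cdk2 was at 0.14. Cyclin E and cyclin A transcripts thus had larger ratios than Ccnd1 (0.50), Ccnd2 (0.21) and Ccnd3 (-0.16), which act before them. These are ratios of single probe sets. Ccne1 (432.2 against 259.7), Ccne2 (412.7 against 206.8) and Ccnd1 lie within 4 times the floor, where the robust SD was 0.51. Both cyclin E genes exceeded Ccnd1 by less than that. Proliferation markers were higher in 21 of 23 measured cases, 12 by at least 2-fold, with a median of 1.10 (0.73 once probe sets shared between transcripts were left out). Aurkb (693 against 142) and Birc5 (2550 against 728), both of the mitotic chromosomal passenger complex, had the largest ratios. The part of the share of cycling cells in the ratios of the 9 genes was not tested.

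The pocket proteins and E2F factors downstream of cyclin D were split, 9 of 18 measured genes higher and 9 lower, with a median of 0.06. E2f1 (57.48 against 114), E2f4 and Lin52 (14.04 against 152.4) were under the floor in DNR Tregs, so they could count only as lower. Mybl2 (211.4 against 110.8) was under it in WT Tregs and could count only as higher. With the floor at the 60th percentile 9 of 15 genes were higher and 6 lower, with a median of 0.23. The even split thus did not hold at every floor. E2f1, Lin52 and Mybl2 are named after their values were seen. E2f8, a repressor of the E2F family that is made in S phase, was 2.16-fold higher (425.8 against 197.2), and 0 genes were lower by 2-fold. Rb1 was at -0.32 with a second probe set at 0.03, Rbl1 (p107) at -0.05 and Rbl2 (p130) at 0.57. E2f4, through which TGF-beta represses Myc in epithelial cells, exceeded the floor in WT Tregs alone (76.27 against 150.1).

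The genes that degrade the 9 gene products were also split, 9 of 18 higher and 9 lower, with a median of -0.07 that was 0.01 under 1 of 8 alternative settings. Cks1b, the cofactor with which the SCF ubiquitin ligase marks p27, was 2.02-fold higher (5965 against 2947), with a second probe set at 0.85. Skp2, the subunit of that ligase that recognises p27, was above the floor on the DNR array alone (193.2 against 88.67). Its 3 other probe sets above the floor on at least 1 array were higher too. They are dimmer than the main one, so the floor can have set their direction as well. Fbxw7, which marks cyclin E and Myc, was at 0.38. Of the other subunits of the ligase, Skp1 was at -0.20 (with a second probe set at 0.23) and Cul1 at -0.14, both within the robust SD of 0.36. Rbx1 was above the floor in WT Tregs alone. Its value of -0.74 is a bound whose direction was set by the floor, as was that of the main Skp2 probe set. No common direction can be given for the ligase genes. These subunits, Skp2 and Fbxw7 were named after their values were seen, and protein levels were not measured.

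Partners and antagonists of Myc showed no common direction: 7 of 13 measured genes were higher and 6 lower, 0 by 2-fold, with a median of 0.05. The members with the most signal, Mycbp2, a large ubiquitin ligase that binds Myc, and Mxd4, a partner of Max that opposes Myc, were at -0.07 and 0.05. Their probe sets disagreed: 0 of 6 others of Mycbp2 and 1 of 3 others of Mxd4 went the same way as the main one, with the next in signal at 0.24 and -0.61. Max, the obligate partner of Myc, had 576.4 on the DNR and 733.9 on the WT array, a log2 ratio of -0.35, and is named after its value was seen. Genes known as Myc targets were lower in 24 of 35 measured cases and higher in 11, where 48.6% of all measured genes were lower, and their median was -0.23. With the median over probe sets 20 of the 35 were lower and 15 higher, so the excess of lower genes depends on the choice of probe set. At 2-fold or more, 2 of these 35 genes were lower and 0 higher, against 2.93% and 4% of all measured genes. Rrp12, a ribosome assembly factor, was at least 2.99-fold lower (64.33 against 331.5), and Slc7a5, an amino acid transporter, was 2.10-fold lower (466.2 against 979). Rrp12 passed the floor on the WT array alone, which set its direction. The same holds for Rrp9 (57.37 against 177.8), named after its values were seen. The median of this list stayed below 0 in all 8 alternative settings, from -0.23 to -0.11, while Myc itself was at 0.05 to 0.10.

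Lists of FOXO and TGF-beta pathway genes, which hold both regulators and targets, were lower in most members, and p53 targets were near the background. Of 17 measured FOXO factors and targets, a group that includes activators of Cdkn1b, 13 were lower and 4 higher, 2 lower by at least 2-fold, with a median of -0.35. Bcl2l11 (Bim, a death-promoting BCL2 relative) had 632.9 against 1508, with all 3 other probe sets lower, and Klf2, a quiescence factor, had 7930 against 18152. The FOXO factors, named after their values were seen, were at -0.58 (Foxo1), -0.34 (Foxo3) and 0.09 (Foxo4, with a second probe set at 0.82). Of 18 measured genes of the TGF-beta cytostatic response 16 were lower and 2 higher, 3 lower by at least 2-fold, with a median of -0.54. Over all measured genes 48.6% were lower, and 2.93% were lower by at least 2-fold. E2f4, E2f5 and Rbl1, all lower, are also in the list of pocket proteins and E2F factors. E2f4 and Id1 passed the floor on the WT array alone, which set their direction. The SMAD repressor gene Skil (4261 against 14390) and Tsc22d1 (538.2 against 1801) had the largest differences of the TGF-beta list. The main probe set of Tsc22d1 is shared between transcripts, and 1 of its 5 others did not go the same way. Of 19 measured p53 targets 12 were lower and 7 higher, 1 lower and 0 higher by at least 2-fold, with a median of -0.06. Bbc3, the gene of the death-promoting protein Puma, was 2.43-fold lower (146.6 against 356.7). Cdkn1a, known as a target of both p53 and TGF-beta signalling, was at 0.06 beside these lists. Markers of macrophages and monocytes were lower in all 9 measured cases, 4 of them by at least 2-fold, with Cd14 and Fcgr1 under the floor. Of 4 measured neutrophil markers 3 were at least 2-fold higher, with S100a9, Ltf, Camp and Mpo under the floor. S100a8 (285.4 against 47.07) and Ngp (287.3 against 37.68) passed the floor on the DNR array alone, which set their direction. Above it on both arrays, Mmp9 was higher and Elane lower (172.6 against 238.1). The part of these cell types in the lower lists and in the ratios of Cdkn1b and Cdkn2d was not tested.

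**Figure D4:**
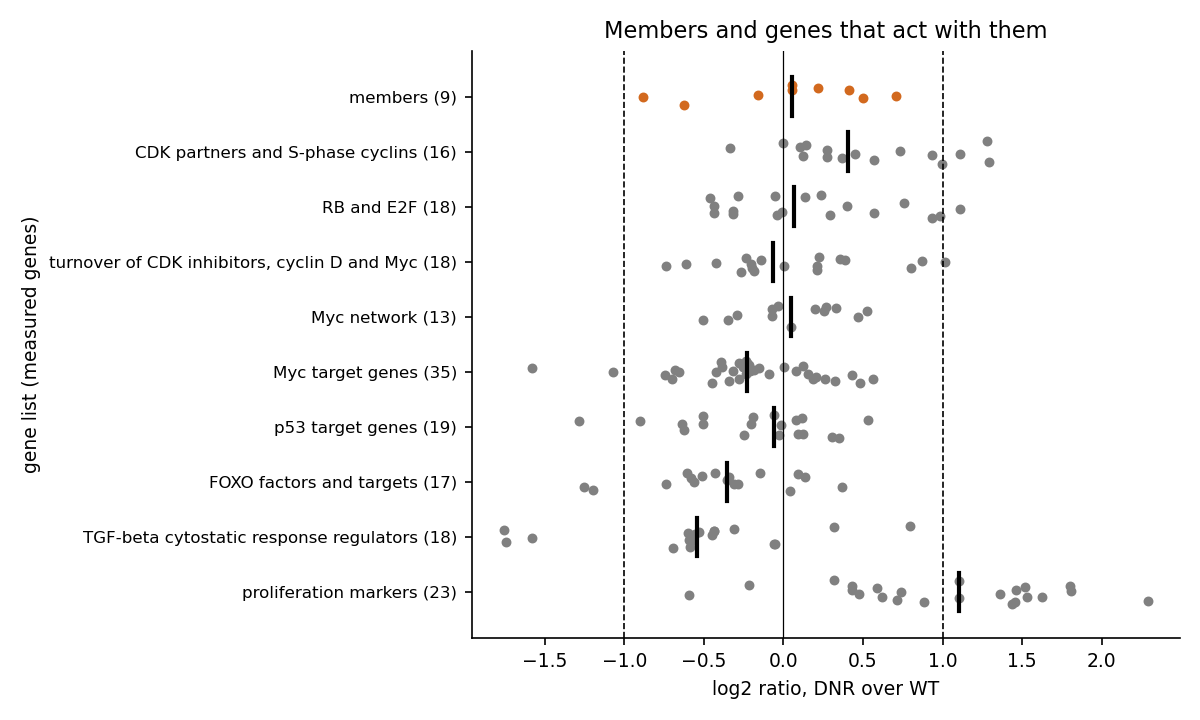
log2 ratio (DNR over WT, horizontal axis) of each measured gene of the 9 members (orange) and of 9 lists of genes that act with them (grey), with the number of measured genes in brackets, black bars at the medians, dashed lines at 2-fold and vertical scatter for display. The members lie around 0 (median 0.06), proliferation markers lie at the right (1.10), and the FOXO (-0.35) and TGF-beta cytostatic lists (-0.54) lie at the left.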

How the data were processed

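The deposited table holds 1 intensity per probe set and array, a linear MAS5 signal that the authors made, per the submitters' processing notes. Leaving out the highest and lowest 2% of values, both arrays had a mean of 500.0, so they had been scaled to a common mean. The genome build is not named in the labels; detection calls and scanner values were not used here. After 64 control probe sets were set aside, the platform annotation gave 34945 of 45037 exactly 1 gene, and 10092 had several or none and are unnamed here; symbols were updated through Entrez identifiers, which changed 0.

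Signals were floored at 110.9, log2 ratios taken, and the probe set with the highest mean signal stood for its gene (Python 3.11.15, pandas 2.3.3, numpy 2.4.6). The threshold was 2-fold. The calling procedure was tested on simulated data, for the recovery of planted differences well above this threshold. That test does not bear on differences as small as those of the member genes. The genes and lists were chosen with earlier results of these data known. Named from a list were up to 2 genes per direction with the largest differences of at least 2-fold, or else the 2 with the most signal; other genes are marked as added. With 2 arrays no likeness of pattern between genes was measured. The alternatives were 2 other floors or none, a pseudocount of 32, the median over probe sets, no probe sets that can bind several transcripts, 2 other scalings, and thresholds of 1.5 and 3. The precision is limited by the number of arrays.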

Additional observations from a re-analysis of the deposited data

How the results depend on the processing

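At the 2-fold threshold 0 of the 9 genes were higher and 0 lower under 7 of the 8 alternatives for floor, probe sets and scaling; with no floor Cdkn2b made 1 gene higher. At 1.5-fold 1 gene was higher (Cdkn2c) and 2 lower (Cdkn1b, Cdkn2d), and at 3-fold 0 in each direction. With the floor at the 60th percentile 8 of the 9 genes were measured, without Cdkn2b. The direction held under all 8 alternatives for Cdkn1b (-0.88 to -0.68), Cdkn2d (-0.63 to -0.58), Cdkn2c (0.68 to 0.75), Ccnd1 (0.28 to 0.54), Ccnd2 (0.17 to 0.26), Ccnd3 (-0.38 to -0.12) and Myc (0.05 to 0.10). Cdkn2c, Cdkn2d and Myc have 1 probe set each, well above the floor. For these genes the floors and probe set choices could not change the value, and only the pseudocount and the 2 scalings could. For Cdkn1b, Ccnd1, Ccnd2 and Ccnd3 the floors, the pseudocount and leaving out shared probe sets could not reverse the direction. That left the median over probe sets and the 2 scalings as settings that could. The value of Cdkn2b ran from 0.41 to 1.01 over the 7 that measured it; its direction was set by the array on which it passed the floor. Cdkn1a was at -0.01 when its probe sets were summarised by their median, and above 0 under the other 7. The settings for the lists were added after their values were seen. No paired analysis was possible because each genotype has 1 array. Signals within 4 times the floor, as for Cdkn2b and Ccnd1, limit what can be read.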
